A study of Mus musculus with 8 samples.

Results

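The insulin-like growth factor (IGF) family was followed as 10 genes, chosen by name and not by a measured value: the ligands Igf1 and Igf2, the receptors Igf1r and Igf2r, and the binding proteins Igfbp2, Igfbp3, Igfbp4, Igfbp5, Igfbp6 and Igfbp7. All 10 were found among the 18605 genes of the deposited gene table, and 33 of its 57714 transcripts belonged to them. The family was put forward with earlier results of these groups known, among them the differences of Igf1 between libraries with and without the Nap1l2 shRNA. Those 2 differences, and the difference between them, are therefore given as a description with no test, and the calls that compare KD with NC are counted over the other 9 genes. Nothing is supported with the family's counts.

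The data were RNA-seq profiles of C3H10T1/2, a mouse embryonic mesenchymal stem cell line of C3H origin, in 4 groups of 2 libraries. Control cells carried a non-target lentiviral construct (NC) and the others a lentiviral shRNA against Nap1l2 (KD-Nap1l2). Both were sampled uninduced and at 7 days of osteogenic induction in medium with dexamethasone, ascorbic acid and β-glycerol phosphate (NC-7day and KD-Nap1l2-7day). All 4 groups shared 1 parental cell line, and the sources used here did not say which of the listed shRNA sequences the sequenced cells carried or whether the 2 libraries of a group came from separate cultures. P-values therefore measure only the spread between these libraries, which may be technical.

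Each library held 17420284 to 19427359 estimated counts. Nap1l2 itself was near the detection limit, with 3 counts in each NC library and 2 and 7 in those of KD-Nap1l2, then 15 and 5 in NC-7day and 7 and 13 in KD-Nap1l2-7day. The targeted transcript was thus not measurably lower in the libraries labelled KD, and every direction between KD and NC below rests on those labels. All 12 mesenchymal stromal markers were in the table, at a summed 11122 to 23033 CPM (counts scaled to a common library total). Most of that sum came from Vim, Col1a1, Col1a2 and Ly6a, while Nt5e had 0 to 3 counts and Thy1 19 to 183. The 4 haematopoietic markers found of 6 summed to at most 1.28 CPM. The osteoblast list was carried by Spp1. Of its other 6 markers Runx2 had 974 to 1604 counts and Dmp1 75 to 569 in every library, while Bglap reached 22.5, Alpl 10, Sp7 5.16 and Ibsp 2 counts. The 2 NC-7day libraries stood apart from each other, with 4673 and 1044 CPM for the interferon response list, 5275 and 2140 CPM for the osteoblast list and 466 and 1021 CPM for the cycling list in replicates 1 and 2.

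IGF-I and IGF-II are secreted growth factors that act on mesenchymal and bone cells mainly through the receptor tyrosine kinase encoded by Igf1r. Igf2r encodes the cation-independent mannose 6-phosphate receptor, which takes up IGF-II and delivers it to lysosomes. The binding proteins hold the ligands in the extracellular space, and proteases such as the pappalysins release them. In bone, osteoblasts are known to make both ligands and several binding proteins.

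The genes were spread over several chromosomes, some as neighbours. In GRCm38, Igf1 was at chr10:87858265-87937042 on the plus strand and Igf2 at chr7:142650766-142666816 on the minus strand. Igf1r was at chr7:67952827-68233668 on the plus strand and Igf2r at chr17:12682406-12769664 on the minus strand. Igfbp2 (chr1:72824503-72852474, plus) and Igfbp5 (chr1:72857932-72874884, minus) lay tail to tail, 5457 bases apart. Igfbp3 (chr11:7206086-7213923, minus) was 3539 bases from Igfbp1, which had no count in 7 libraries and 1 in the other. Igfbp4 was at chr11:99041244-99054392 and Igfbp6 at chr15:102144362-102149511, both on the plus strand, and Igfbp7 at chr5:77349240-77408041 on the minus strand.

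RefSeq gave start-site windows for all 10 genes (14 windows, build GRCm38.p6), and the 250 bases before 4 of these starts are shown. They belong to 3 of the genes whose counts were lower after induction of the control cells, and the pair for Igf2 marks the starts of its 2 main transcripts. Capitals mark matches on either strand to 4 motifs. These were the CCAAT box, the GC-box core (GGGCGG), the TATA box (searched as TATAAA) and the glucocorticoid receptor half-site (searched as TGTTCT). Matches to different motifs did not overlap in the sequences printed. For Igf2, the first window (chr7:142657497-142657746, minus strand) ends where the transcript NM_001122737.2 starts and the second (chr7:142666817-142667066, minus strand) where NM_001315488.1 starts. The Igfbp2 window shown was chr1:72824230-72824479 on the plus strand, before NM_008342.3, and the Igfbp3 window chr11:7213924-7214173 on the minus strand.
Igf2, start of NM_001122737.2: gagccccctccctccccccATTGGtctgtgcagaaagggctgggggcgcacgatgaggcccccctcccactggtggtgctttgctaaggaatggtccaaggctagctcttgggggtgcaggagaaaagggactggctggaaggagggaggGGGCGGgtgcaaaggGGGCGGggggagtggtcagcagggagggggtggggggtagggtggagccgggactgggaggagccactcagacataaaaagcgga
Igf2, start of NM_001315488.1: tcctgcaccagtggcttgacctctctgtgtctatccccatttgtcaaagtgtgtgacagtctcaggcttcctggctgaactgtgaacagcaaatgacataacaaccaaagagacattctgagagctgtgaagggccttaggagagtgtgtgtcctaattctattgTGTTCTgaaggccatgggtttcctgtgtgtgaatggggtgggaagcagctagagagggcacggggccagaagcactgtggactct
Igfbp2: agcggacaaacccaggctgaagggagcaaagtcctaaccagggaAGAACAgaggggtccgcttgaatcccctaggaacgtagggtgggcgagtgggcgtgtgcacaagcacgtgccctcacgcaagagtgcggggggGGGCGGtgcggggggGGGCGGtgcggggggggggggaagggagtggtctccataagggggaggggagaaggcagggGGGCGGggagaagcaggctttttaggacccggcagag
Igfbp3: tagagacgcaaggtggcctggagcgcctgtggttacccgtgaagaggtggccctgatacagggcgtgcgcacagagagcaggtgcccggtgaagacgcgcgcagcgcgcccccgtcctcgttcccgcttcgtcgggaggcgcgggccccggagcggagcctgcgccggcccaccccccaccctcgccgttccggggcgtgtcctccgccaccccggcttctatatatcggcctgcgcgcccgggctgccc
The first Igf2 window held 2 GGGCGG and 1 CCAAT, the second 1 TGTTCT, the Igfbp2 window 3 GGGCGG and 1 TGTTCT, and the Igfbp3 window none of the 4. Among all 32851 windows of 250 bases, 32.7% held GGGCGG, 33.8% CCAAT, 16.1% TGTTCT and 12.4% TATAAA, so each match is a common one. A further Igfbp2 window (chr1:72825137-72825386, plus strand), near the start of NM_001310659.1, held none of the 4 motifs. That transcript had 32.2% to 100% of Igfbp2 estimated counts in 7 libraries and 0% in KD-Nap1l2-7day replicate 1, where the gene had 2 counts. A match is a string of letters and not a measured binding site. The Igf1 window is not shown, because it does not lie at the start of the gene's main transcript in the table.

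Per unit length, Igf2 and Igfbp7 were the leading family members. Igfbp7, a secreted relative that binds IGFs weakly, held 180 ± 10.2 FPKM in NC, 185 ± 32.1 in KD-Nap1l2, 205 ± 10.6 in NC-7day and 221 ± 25.8 in KD-Nap1l2-7day (mean ± SD, n = 2; FPKM is fragments per kilobase and depth, as deposited). Igf2 was above it in NC only, at 250 ± 18.9 FPKM, and at rank 2 in the other 3 groups at 57.7 ± 8.68, 80.2 ± 18.7 and 45.1 ± 14.7 FPKM in the same order. Igf1 had rank 3 before induction (22.9 ± 9.02 FPKM in NC and 40.9 ± 0.721 in KD-Nap1l2) and rank 7 after it (5.03 ± 1.99 and 1.13 ± 0.226 FPKM). In NC, Igf1 at 29.3 and 16.5 FPKM overlapped its neighbour Igf2r at 18.3 and 24.0 FPKM, so their order there is within the spread. In KD-Nap1l2 the libraries of Igf1 (41.4 and 40.4 FPKM) lay above those of Igf2r (28.6 and 25.7 FPKM).

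**Figure D1:**
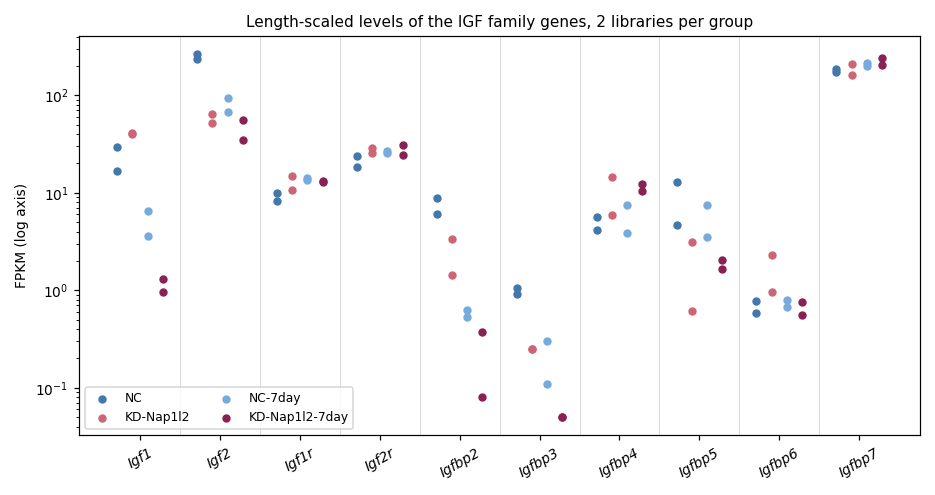
Length-scaled level (FPKM, log axis) of each IGF family gene, with 1 point per library and 2 libraries per group in colour. Igfbp7 stays between 162 and 240 FPKM in all 8 libraries, while Igf1 spans 0.97 to 41.4 and Igfbp3 lies at or below 1.05 FPKM.

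The balance of the ligands differed among groups. Igf2 exceeded Igf1 by 8.99 and 14.3 times in the 2 NC libraries, on the FPKM scale. In the libraries labelled KD-Nap1l2 the ratio was 1.25 and 1.58, which is the lowest of the 4 groups. It was 18.5 and 14.5 in NC-7day and 35.7 and 43.0 in KD-Nap1l2-7day. The summed FPKM of both ligands was 292 and 253 in NC, 93.0 and 104 in KD-Nap1l2, 70.6 and 99.9 in NC-7day and 35.6 and 56.8 in KD-Nap1l2-7day. NC lay above the other groups without overlap and KD-Nap1l2-7day below them.

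Igfbp7 made up 86.3% to 95.7% of the summed binding protein FPKM in every library. Among Igfbp2 to Igfbp6, the leading member was Igfbp2 in NC replicate 1 (33.3% of their sum) and Igfbp5 in NC replicate 2 (46.6%). It was Igfbp4 in the other 6 libraries, with 50.3% and 68.9% in KD-Nap1l2, 45.2% and 43.8% in NC-7day and 83.8% and 76.4% in KD-Nap1l2-7day. In NC-7day Igfbp5 was level with it or close, at 7.55 against 7.56 FPKM in replicate 1 and 3.51 against 3.86 in replicate 2. In NC replicate 1 Igfbp4, at 5.64 FPKM, was near Igfbp2 at 5.98.

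Levels of each gene between groups were compared as counts normalized to library size (CPM, scaled by trimmed mean of M values). In bulk RNA a lower level from fewer expressing cells and one from less RNA per cell cannot be told apart. Igf1 stood at 211 and 118 CPM in NC, 283 and 302 in KD-Nap1l2, 26.5 and 44.9 in NC-7day and 6.92 and 9.33 in KD-Nap1l2-7day. The KD-Nap1l2 libraries were the highest and the KD-Nap1l2-7day libraries the lowest, with no overlap between any pair of groups. Igf2 stood at 990 and 860 CPM in NC, 183 and 247 in KD-Nap1l2, 256 and 340 in NC-7day and 128 and 204 in KD-Nap1l2-7day. NC was apart from the rest, and the KD-Nap1l2 libraries overlapped those of KD-Nap1l2-7day.

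**Figure D2:**
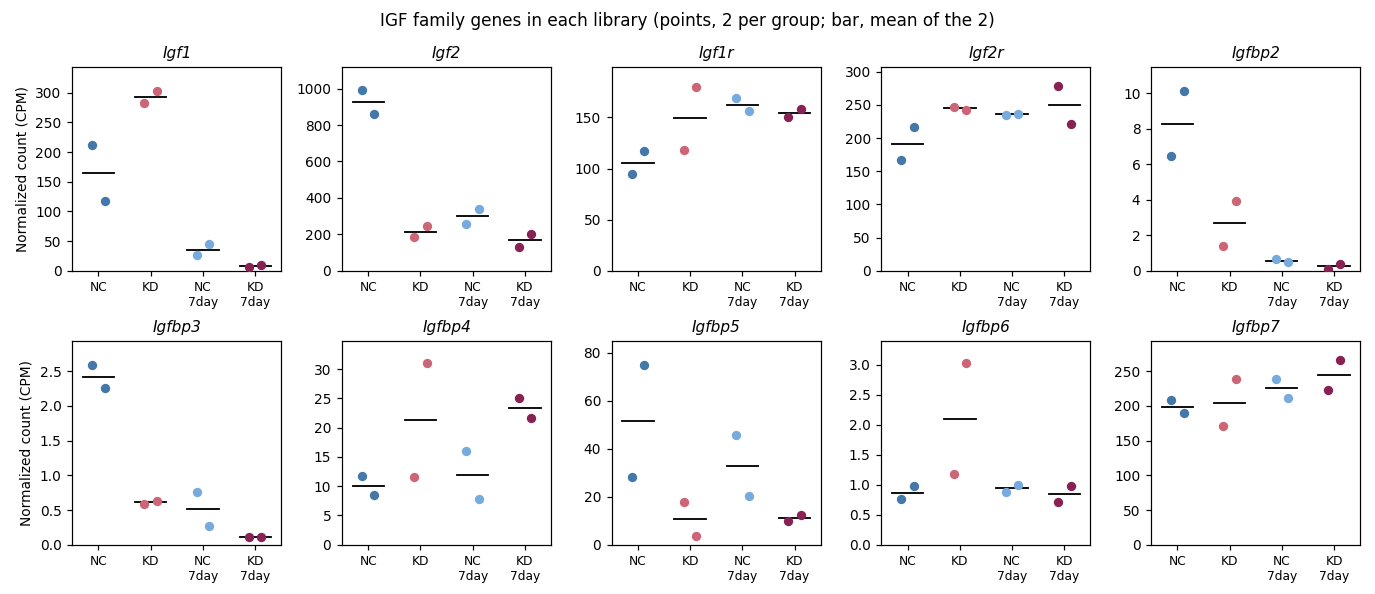
Normalized counts (CPM, each axis from 0) of the 10 IGF family genes in the 4 groups, with 1 point per library and a bar at the mean of 2. Igf1 is highest in KD-Nap1l2 and lowest in KD-Nap1l2-7day, Igf2 is highest in NC (860 and 990 CPM), and Igf1r, Igf2r and Igfbp7 move least.

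The first comparison asked how the ligands, receptors and binding proteins differed before induction, with KD-Nap1l2 set against NC by their labels. Apart from Igf1, 0 of 9 genes passed edgeR's quasi-likelihood test at an adjusted p under 0.05 over 13470 genes, where 11 genes or 0.0817% were called. Of the 9, 6 had an unadjusted p under 0.05, against 13.7% of all genes. DESeq2's Wald test called 1 of the 9, Igf2, and 3.43% of all genes. The log2 difference of Igf2 was -2.10, lower in KD-Nap1l2 (SE 0.27, edgeR adjusted p = 0.0617), or 4.30 times. Its adjusted p ranged from 4.91e-13 under DESeq2 to 0.243 over the alternatives, and the call was made in 7 of them, including the fits without KD-Nap1l2 replicate 1 or either NC-7day library (adjusted p = 0.0350, 0.0263 and 0.0277). The log2 difference of Igf1 was 0.83, higher in KD-Nap1l2, given as a description.

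The receptors and the binding proteins did not share 1 direction. Igf1r was at 94.9 and 117 CPM in NC and 118 and 180 in KD-Nap1l2, a log2 difference of 0.49 (SE 0.20, edgeR adjusted p = 0.345). Igf2r was at 167 and 216 CPM against 247 and 243, a log2 difference of 0.35 (SE 0.17, edgeR adjusted p = 0.404). Both receptors were without overlap and higher in the libraries labelled KD-Nap1l2, but neither difference passed the test.

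Igfbp2, which binds both ligands and is made by many mesenchymal cells, had 120 and 197 counts in NC against 26 and 69, a log2 difference of -1.64 (SE 0.52, edgeR adjusted p = 0.231). Igfbp3, the main carrier of IGFs in serum, had 48 and 44 counts against 11 and 11, a difference of -1.98 (SE 0.47, edgeR adjusted p = 0.143). Igfbp5, which is stored in bone matrix, had 520 and 1463 counts against 331 and 66, and its libraries differed several-fold within each group. Its log2 difference was -2.25 (SE 0.73, edgeR adjusted p = 0.234).

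Igfbp4, an inhibitory binding protein, overlapped between the groups with 11.8 and 8.45 CPM in NC and 11.5 and 31.0 in KD-Nap1l2. Igfbp6, which prefers IGF-II, had 14 and 19 counts against 22 and 53, and Igfbp7 overlapped (log2 difference 0.04, SE 0.19). Apart from Igf1, the genes without overlap of the libraries were Igf1r, Igf2r and Igfbp6, all higher, and Igf2, Igfbp2, Igfbp3 and Igfbp5, all lower. Igfbp4 and Igfbp7 overlapped. Over all genes 43.2% did not overlap. Several marker lists moved with this comparison without overlap. The interferon response list (7 of 8 genes in the table) summed to 3923 to 5502 CPM in NC and 561 to 1708 in KD-Nap1l2. The other way, the adipocyte list (7 genes) spanned 61.4 to 68.9 CPM in NC and 96.8 to 111 in KD-Nap1l2. The chondrocyte list (4 genes) spanned 312 to 317 CPM and 379 to 502. The cycling list (8 genes) was at 935 to 1074 CPM in NC and 1173 to 1346 in KD-Nap1l2. The myoblast list (5 genes) was at 3.76 to 6.90 and 7.65 to 7.75. Nearly all myoblast counts were from Des, at 127 and 73 in NC and 136 and 137 in KD-Nap1l2. The other myoblast genes had at most 3 counts in any library. The endothelial and epithelial lists were also higher, at no more than 8.86 CPM. The endothelial rise was in Tek (29 and 61 counts in NC, 102 and 85 in KD-Nap1l2). Pecam1 (25 and 17 against 15 and 10) and Cdh5 (17 and 17 against 1 and 0) were lower. The epithelial rise was in Cdh1, from 63 and 92.3 counts to 150 and 98. The other epithelial genes had at most 8.05 counts. The part of these marker lists in the differences was not tested.

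The second comparison set the libraries labelled KD-Nap1l2-7day against NC-7day, after 7 days of osteogenic induction. Apart from Igf1, 0 of 9 genes passed edgeR's test, with 0% of all genes called, and 2 of the 9 had an unadjusted p under 0.05, against 7.85% of all genes. DESeq2 called 0 of the 9 and 0.609% of all genes. Igf1 was lower in both KD-Nap1l2-7day libraries, with a log2 difference of -2.14 (4.40 times), given as a description. Igf2 was lower without overlap (log2 difference -0.84, SE 0.26, edgeR adjusted p = 0.519).

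Among the binding proteins, Igfbp3 had 13 and 5 counts in NC-7day and 2 and 2 in KD-Nap1l2-7day. The ratio of the pooled counts per total, 18 against 4, was 4.47 with an exact 95% interval of 1.47 to 18.2, which covers counting error only. With the spread between libraries its log2 difference, -2.11, did not pass (SE 0.70, edgeR adjusted p = 0.53). Igfbp2 had 11 and 9 counts against 2 and 7, a ratio of 2.21 with an interval of 0.961 to 5.51, so a difference was not detectable at this depth. Igfbp5 was at 45.6 and 20.3 CPM against 9.78 and 12.2 (log2 difference -1.58, SE 0.72, edgeR adjusted p = 0.653). Igfbp4 ran the other way, at 16.0 and 7.78 CPM against 25.0 and 21.7 (log2 difference 0.98, SE 0.48, edgeR adjusted p = 0.682).

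The receptors overlapped, with log2 differences of -0.07 for Igf1r (95% interval -0.47 to 0.32) and 0.08 for Igf2r (-0.25 to 0.41). Igfbp6 and Igfbp7 overlapped too. Apart from Igf1, Igfbp4 was higher and Igf2, Igfbp2, Igfbp3 and Igfbp5 were lower without overlap, where 42.1% of all genes did not overlap. The myoblast list was at 3.85 to 5.71 CPM in NC-7day and 7.83 to 10.0 in KD-Nap1l2-7day. The epithelial list (4 genes) was at 1.78 to 2.01 and 2.28 to 3.29, and the other lists overlapped. Most myoblast counts were from Des (67 and 106 against 181 and 138). Most epithelial counts were from Cdh1 (27 and 31 against 40.4 and 51.1). The part of these lists was not tested.

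The third comparison followed osteogenic induction in the control cells. Here 4 of the 10 genes passed edgeR's test and all 4 fell, namely both ligands, Igfbp2 and Igfbp3. Of all genes 8.21% were called in either direction, with 3.38% lower and 4.83% higher after induction. Igf1 fell by 2.20 on the log2 scale (SE 0.33, edgeR adjusted p = 0.00925), or 4.60 times, and Igf2 fell by 1.63 (SE 0.26, edgeR adjusted p = 0.0116), or 3.10 times.

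Igfbp2 showed the widest change of the family, from 6.48 and 10.1 CPM to 0.645 and 0.473, and fell by 3.88 on the log2 scale (SE 0.61, edgeR adjusted p = 0.0105). Its pooled counts of 317 against 20 gave a ratio of 15.0, with an exact counting interval of 9.52 to 24.8. Igfbp3 went from 2.59 and 2.25 CPM to 0.763 and 0.263 and fell by 2.25 (SE 0.48, edgeR adjusted p = 0.0309), with 92 against 18 pooled counts.

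The receptors were higher without overlap and did not pass the test. Igf1r went from 94.9 and 117 CPM to 169 and 156 (log2 difference 0.62, SE 0.20, edgeR adjusted p = 0.111), and Igf2r from 167 and 216 to 235 and 237 (0.30, SE 0.17, adjusted p = 0.314 in the same test). Igfbp7 was also higher without overlap, by 0.18 (SE 0.19), while Igfbp4, Igfbp5 and Igfbp6 overlapped. Among all genes 57.8% did not overlap in this comparison, and of the 10 genes 7 did not. The calls of Igf1, Igf2, Igfbp2 and Igfbp3 were all lost without NC replicate 1. That fit left 1 NC library and called fewer of all genes too. The log2 differences in it were -1.72 for Igf1, -1.53 for Igf2, -4.17 for Igfbp2 and -2.14 for Igfbp3. The call of Igf2 was also lost without NC-7day replicate 1 (edgeR adjusted p = 0.0553). The log2 difference of Igfbp3 was -3.17 without NC-7day replicate 1 and -1.66 without NC-7day replicate 2. Its call was lost without NC replicate 2, NC-7day replicate 2 or either KD-Nap1l2-7day library. It was also lost in a fit of only the libraries compared (edgeR adjusted p = 0.0743).

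**Figure D3:**
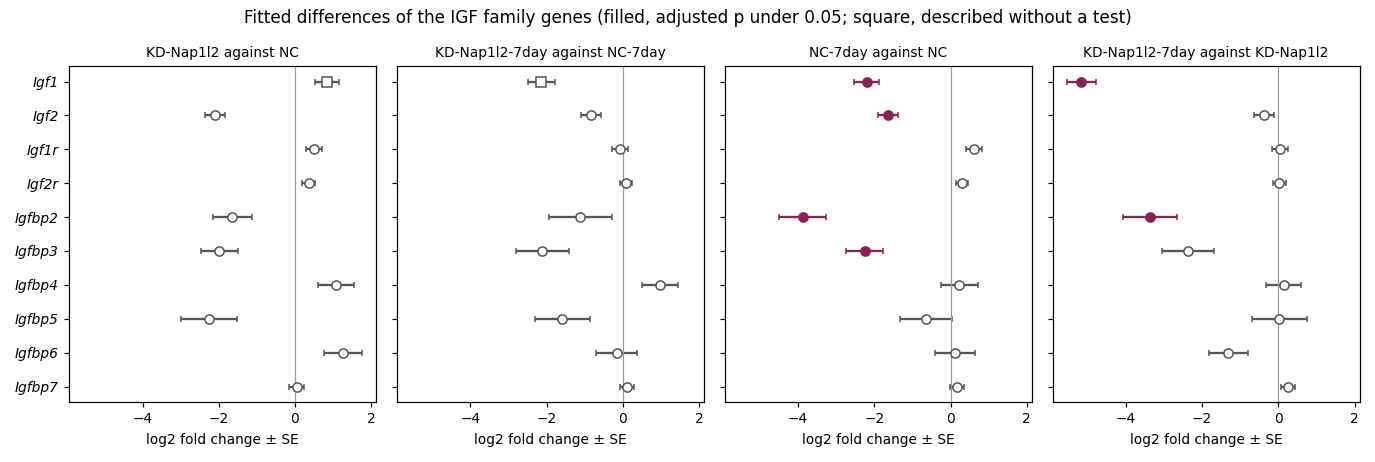
Fitted log2 fold change ± SE of each IGF family gene in the 4 comparisons, as circles filled where the adjusted p over all genes tested was under 0.05 and as squares for the 2 Igf1 differences that are described without a test. Filled points are Igf1, Igf2, Igfbp2 and Igfbp3 for NC-7day against NC, and Igf1 and Igfbp2 for KD-Nap1l2-7day against KD-Nap1l2, all below 0.

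The fourth comparison followed the same induction in the cells labelled KD-Nap1l2. Igf1 and Igfbp2 passed edgeR's test and both fell, 2 of 10, where 14.2% of all genes were called, 7.36% lower and 6.84% higher after induction. Igf1 went from 283 and 302 CPM to 6.92 and 9.33 and fell by 5.17 on the log2 scale (SE 0.39, edgeR adjusted p = 0.000575), or 36.0 times. That call was made in every alternative that kept 2 libraries per group. With each library left out in turn, the log2 difference stayed between -5.41 and -4.97. Igf1 had been put forward with the KD against NC differences of these libraries known, so its p is not from an independent choice. The same holds for the p of Igf1 in the control cells. Igfbp2 fell by 3.36 (SE 0.71, edgeR adjusted p = 0.0211), with 95 pooled counts against 9 and a ratio of 10.5 (exact counting interval 5.28 to 23.6). Its call was not made without KD-Nap1l2 replicate 2 or without KD-Nap1l2-7day replicate 1 or 2. The log2 differences in these 3 fits were -2.43, -2.71 and -4.52. Each of them left 1 library in a group and called fewer of all genes too.

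Igf2 did not pass. It was 183 and 247 CPM before and 128 and 204 after, with overlap and a log2 difference of -0.37 (SE 0.26, 95% interval -0.88 to 0.14). Igfbp3 had 11 and 11 counts before and 2 and 2 after, a log2 difference of -2.37 (SE 0.68, edgeR adjusted p = 0.0562) and a count ratio of 5.45 (exact interval 1.85 to 21.7). Igfbp6 was lower without overlap, from 1.18 and 3.02 CPM to 0.714 and 0.973 (log2 difference -1.31, SE 0.50, edgeR adjusted p = 0.121).

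The receptors, Igfbp4, Igfbp5 and Igfbp7 overlapped. Igf1r and Igf2r had log2 differences of 0.05 (95% interval -0.35 to 0.45) and 0.03 (-0.30 to 0.36). No family gene was higher without overlap, 4 were lower and 6 overlapped, against 61.4% of all genes without overlap. Marker lists moved with induction in both arms. The 6 glucocorticoid response genes summed to 115 to 192 CPM before and 1077 to 1186 after. The mesenchymal stromal list was at 18723 to 19385 CPM in NC and 12581 to 15023 in NC-7day. In the other arm it was at 18252 to 23033 CPM in KD-Nap1l2 and 11122 to 12770 in KD-Nap1l2-7day. Vim, Col1a1 and Col1a2 held most of it and were lower after induction in both arms. Pdgfrb was not lower in NC-7day (12139 and 12230 counts against 11035 and 11911). Ly6a was higher in KD-Nap1l2-7day (23228 and 38117 counts against 20847 and 14856). After induction the adipocyte list spanned 179 to 205 CPM in NC-7day and 166 to 212 in KD-Nap1l2-7day, above its levels before. Fabp4 and Pparg rose in both arms, in the control cells from 116 and 91 counts to 1758 and 1572 for Fabp4. Cebpa went the other way, from 153 and 77 counts to 47 and 69 in the control cells. In the cells labelled KD-Nap1l2, Cebpa fell from 202 and 141 counts to 40 and 24. Lpl fell there from 714 and 894 to 190 and 355, and overlapped in the control cells. The osteoblast list (7 genes) spanned 1644 to 1770 CPM in NC and 1603 to 1910 in KD-Nap1l2. After induction it spanned 2140 to 5275 in NC-7day and 4332 to 4554 in KD-Nap1l2-7day. That rise was in Spp1 (30999 and 30011 counts in NC, 90638 and 38565 in NC-7day). Runx2 was lower after induction, at 1571 and 1603 counts in NC and 1097 and 1092 in NC-7day. In KD-Nap1l2 it had 1352 and 1604, and 974 and 980 in KD-Nap1l2-7day. Dmp1 fell from 511 and 307 counts to 154 and 75 in the control cells. In the other arm it fell from 569 and 130 to 119 and 114. In KD-Nap1l2-7day the interferon response list, at 2535 to 3477 CPM, was above its KD-Nap1l2 level. The chondrocyte list, at 263 to 267, and the cycling list, at 569 to 572, were below theirs. The endothelial and epithelial lists were lower after induction in both arms and at most 8.86 CPM in any library. The part of these lists in the differences was not tested.

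The difference between the 2 induction responses was also fitted. Apart from Igf1, 0 of 9 genes and 0% of all genes passed edgeR's test, with 1 of the 9 (Igf2) and 7.04% of all genes at an unadjusted p under 0.05. DESeq2 called 0 of the 9 and 0.72% of all genes. The log2 induction response of Igf1 was -2.20 in NC and -5.17 in the cells labelled KD-Nap1l2, which differ by -2.97, again a description. For Igf2 the responses were -1.63 and -0.37, a difference of 1.26 (SE 0.37, edgeR adjusted p = 0.554). The comparisons share libraries pairwise, so their values stand side by side and are not independent of each other.

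Igf2 counts came from 6 annotated transcripts, nearly all from the 2 whose start windows are printed above. NM_001122737.2 had 15657 and 15081 estimated counts in NC, 2806 and 2894 for KD-Nap1l2, 4251 and 6456 in NC-7day and 1976 and 2489 in KD-Nap1l2-7day. Its share of Igf2 counts was 85.3% and 89.8% in NC, 82.1% and 66.7% in KD-Nap1l2, 97.4% and 99.7% in NC-7day and 84.6% and 69.7% in KD-Nap1l2-7day. This transcript therefore carried most of the Igf2 signal in all 8 libraries.

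NM_001315488.1, which starts upstream of it, had 2409 and 1283 estimated counts in NC, against 592 and 1430 in KD-Nap1l2. After induction it had 0 and 3.71 estimated counts in NC-7day but 361 and 1040 in KD-Nap1l2-7day. Its share of Igf2 counts was 13.1% and 7.64% in NC, 17.3% and 33.0% in KD-Nap1l2, 0% and 0.0573% in NC-7day and 15.4% and 29.1% in KD-Nap1l2-7day. Transcripts of 1 gene share reads and their counts are estimates that divide those reads, so no test was run on the shares.

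**Figure D4:**
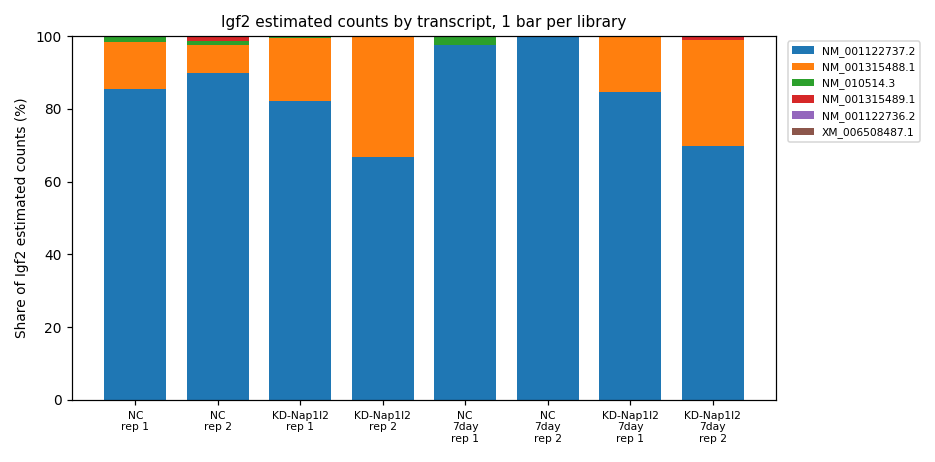
Share (%) of Igf2 estimated counts by RefSeq transcript, 1 stacked bar per library. NM_001315488.1 takes 7.64% to 33.0% in NC, KD-Nap1l2 and KD-Nap1l2-7day, and at most 0.0573% in NC-7day.

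Igf1 counts were divided over 12 transcripts. NM_001111275.2 held 71.2% to 79.4% of them in NC, KD-Nap1l2 and NC-7day, and NM_010512.5 held 9.76% to 21.5%. In KD-Nap1l2-7day, with 126 and 163 Igf1 counts in all, NM_001111275.2 held 100% in one library and 57.2% in the other. At that depth the 2 libraries do not give a stable split.

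The wider IGF pathway was described with a list of 51 genes outside the family, 50 of them in the table and 46 tested. Between the libraries labelled KD and NC, 0 of 46 passed edgeR's test before induction and 0 after 7 days, with 6 and 3 at an unadjusted p under 0.05, beside 13.7% and 7.85% of all genes. DESeq2 called 1 gene of the list before induction, where it called 3.43% of all genes. The median log2 differences were 0.11 and 0.01. After induction 6 of 46 passed in the control cells (3 higher and 3 lower, median 0.18) and 8 in the cells labelled KD-Nap1l2 (3 higher and 5 lower, median 0.15), beside the shares of all genes given above. No gene of the list passed for the difference between the induction responses, with 1 at an unadjusted p under 0.05, where 7.04% of all genes had one.

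Stc1, which encodes a stanniocalcin that inhibits pappalysins, fell by 4.15 on the log2 scale in the control cells (SE 0.40, edgeR adjusted p = 0.00192). It fell by 3.97 in the cells labelled KD-Nap1l2 (SE 0.41, edgeR adjusted p = 0.00167), and both calls were made in every alternative run. Its levels were 22.0 and 22.0 CPM in NC, 13.1 and 17.8 in KD-Nap1l2, 0.704 and 1.73 in NC-7day and 0.714 and 1.26 in KD-Nap1l2-7day. Pappa2, a pappalysin that cleaves Igfbp3 and Igfbp5, was at 46.8 and 12.3 CPM in NC, 91.6 and 148 in KD-Nap1l2, 6.33 and 5.15 in NC-7day and 20.3 and 15.6 in KD-Nap1l2-7day. It fell by 2.36 and 2.74 with induction in the 2 arms (SE 0.58 and 0.55, edgeR adjusted p = 0.0458 and 0.0183). In the control arm its call was lost without NC replicate 1, where the log2 difference was -1.10. It was also lost without either NC-7day library or either KD-Nap1l2-7day library. The same held in a fit of only the libraries compared (edgeR adjusted p = 0.0961) and with a replicate block (0.0675). Nor was it called with limma on log2(FPKM + 1) or log2(FPKM + 0.1) (limma adjusted p = 0.118 and 0.0653).

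Pappa, the pappalysin that cleaves Igfbp4, was at 7.12 and 3.12 CPM in NC, 6.86 and 3.02 in KD-Nap1l2, 6.86 and 5.10 in NC-7day and 21.0 and 11.3 in KD-Nap1l2-7day, and was called in no comparison. Htra1, a secreted serine protease, fell by 1.43 in the cells labelled KD-Nap1l2 (SE 0.36, edgeR adjusted p = 0.0373), from 6.49 and 10.2 CPM to 3.35 and 2.80. Igfals, whose product binds Igfbp3 complexes in serum, fell by 2.06 in the control cells (SE 0.35, edgeR adjusted p = 0.0135), from 58 and 57 counts to 13 and 13.

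Insr, the insulin receptor, rose from 45.3 and 55.5 CPM to 100 and 86.8 in the control cells, a log2 difference of 0.89 (SE 0.16, edgeR adjusted p = 0.0147). Irs1, an adaptor of Igf1r and Insr, fell by 0.79 in the cells labelled KD-Nap1l2, from 178 and 209 CPM to 113 and 111 (SE 0.20, edgeR adjusted p = 0.0379). The related adaptor Irs2 was at 7.88 and 8.20 CPM in NC, 5.90 and 10.9 in KD-Nap1l2, 14.5 and 20.4 in NC-7day and 17.2 and 15.4 in KD-Nap1l2-7day, without a call. Grb10, an inhibitory adaptor, fell by 0.53 in the cells labelled KD-Nap1l2, from 351 and 351 CPM to 245 and 243 (SE 0.14, edgeR adjusted p = 0.0399).

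Downstream, Pik3r1, a regulatory subunit of phosphoinositide kinase, rose in both arms, by 1.18 and 1.25 on the log2 scale (SE 0.18 in each, edgeR adjusted p = 0.00874 and 0.00531). Igf2bp2, which binds Igf2 mRNA, rose by 0.96 and 1.03 (SE 0.19 in each, edgeR adjusted p = 0.0251 and 0.0144). Tsc1, an inhibitor of mTOR signalling, rose by 0.62 in the cells labelled KD-Nap1l2 (SE 0.16, edgeR adjusted p = 0.0412). Without NC replicate 1 only Stc1 of the list was called in the control arm, and without KD-Nap1l2-7day replicate 1 only Stc1 in the other. Both fits left 1 library in a group and called fewer of all genes too. Every pathway call but the 2 of Stc1 was lost in at least 1 fit that left out a library. In the cells labelled KD-Nap1l2, Irs1, Htra1, Grb10 and Tsc1 also lost theirs with the replicate block (edgeR adjusted p = 0.0563, 0.0559, 0.0550 and 0.0545). Grb10 there and Igf2bp2 in the control cells lost theirs with only the libraries compared (edgeR adjusted p = 0.0577 and 0.0706). Tsc1 was not called with limma on log2(FPKM + 1) or log2(FPKM + 0.1) (limma adjusted p = 0.0970 and 0.0962).

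**Figure D5:**
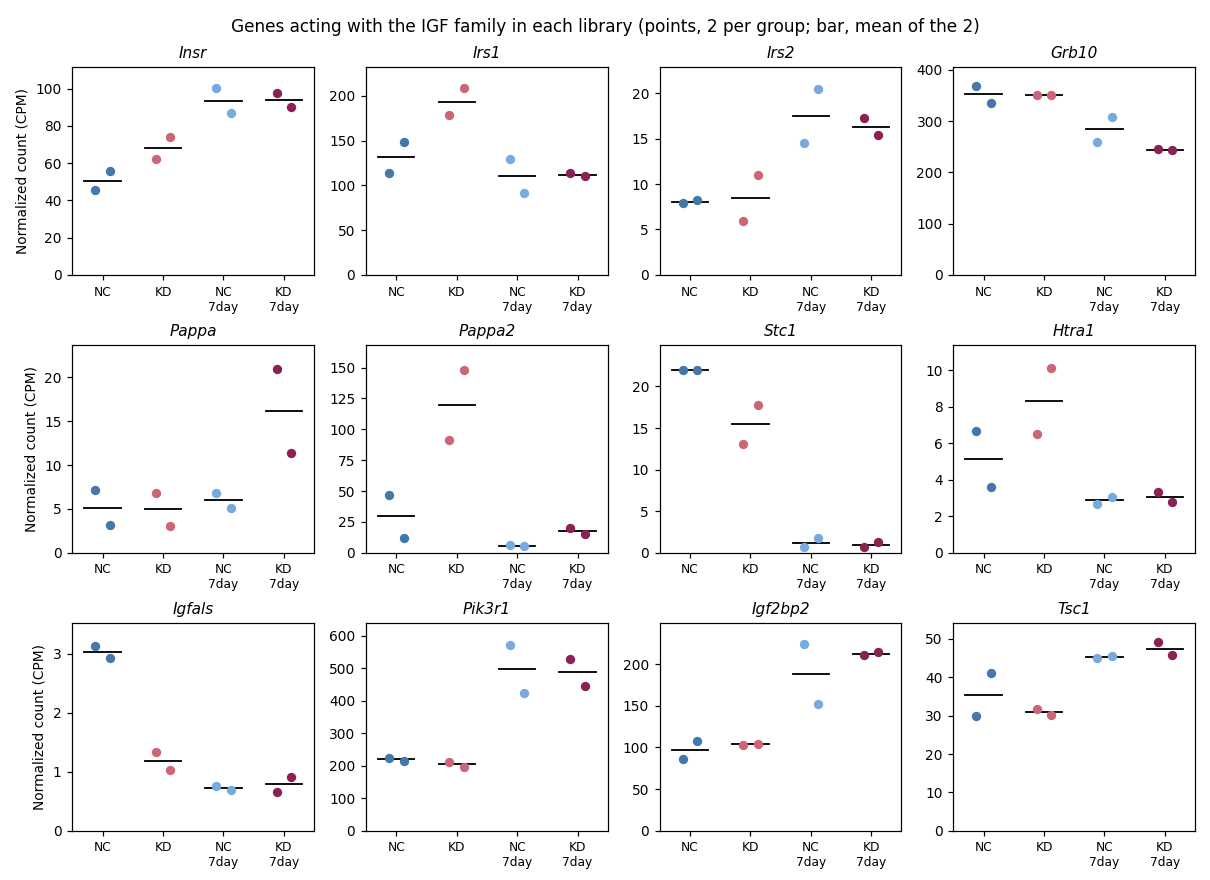
Normalized counts (CPM, each axis from 0) of 12 genes that act with the IGF family, with 1 point per library and a bar at the mean of 2. Stc1 lies at or above 13.1 CPM before induction and at or below 1.73 after it, and Pappa2 is highest in KD-Nap1l2 (91.6 and 148 CPM).

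The 3 family genes with the widest span of group means were Igf1, Igfbp2 and Igfbp3, and the genes with the most similar profiles over the 8 libraries were listed as a description (Pearson correlation of log2 CPM). For Igf1 these were Rnf122 (0.997), Miip (0.986) and Calml4 (0.986), and for Igfbp2 Timm17b (0.986), Sgcb (0.983) and Fmc1 (0.974). For Igfbp3 they were Uqcrb (0.981), Zfp651 (0.971) and Phkg1 (0.965). The points share 4 groups and 2 times, 11279 or 11280 genes were searched for each, and no p is given.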

How the data were processed

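RNA-seq of C3H10T1/2 cells was analysed from the processed tables of 8 libraries. The deposited gene and transcript tables hold estimated counts and FPKM, as made by the authors, and the submitters' processing notes name RSEM, BWA, Bowtie2 and build GRCm38.p6 without their roles. Versions and library strand were not given in the sources used here, so reads from antisense genes cannot be told apart. The authors' own comparison columns (fold changes, p and q values) were not used. Of the gene rows, 41.1% held a count that was not whole, and counts were rounded to whole numbers.

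Groups were compared with edgeR 4.0.16 (quasi-likelihood F-test, TMM scaling, filterByExpr, all 8 libraries in 1 fit, R 4.3.3), with Benjamini-Hochberg adjustment over the 13470 genes tested and calls at an adjusted p under 0.05. SE is the log2 fold change divided by the root of F. The 95% intervals of log2 differences are normal intervals from that SE and run narrower than the F-test would give. For Igfbp4 before induction the interval, 0.132 to 2.01, lies wholly on the positive side. The unadjusted p of the quasi-likelihood F-test there was 0.0563. The alternatives were DESeq2 1.42.0, limma 3.58.1, other filters, other scaling, only the libraries compared, a replicate block and leaving out each library. The fit was also run on simulated data with changes placed only in genes of higher counts, which does not cover genes at few counts such as Igfbp3. An exact permutation test of 2 against 2 libraries cannot go below p = 0.333. Counting intervals are exact, cover counting error only and have a level of 95%. Total counts were 17420284 to 19427359. The family, the pathway list and the marker lists were chosen with earlier results of these data known. From the pathway list the text names the called genes with up to 4 of the largest rises and falls in each comparison, plus Insr, Irs1, Irs2, Grb10, Pappa, Htra1 and Igfbp1. H19 was not analysed here. Coordinates are from GENCODE and promoter windows from RefSeq, both on GRCm38.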

Additional observations from a re-analysis of the deposited data

Results flagged for a closer look

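Igf1 was the 1 family gene whose difference between the libraries labelled KD and NC had opposite directions at the 2 times without overlap. Both KD-Nap1l2 libraries lay above both NC libraries before induction, and both KD-Nap1l2-7day libraries lay below both NC-7day libraries. The 2 log2 differences, 0.83 and -2.14, differ by -2.97 (SE 0.47), and no test is given for it because Igf1 was put forward with both differences known.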

How the results depend on the processing

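Of the family genes, edgeR called 0 before induction for KD-Nap1l2 against NC, and 1 (Igf2) was called by DESeq2, with no filter on low counts, and by limma on log2(FPKM + 1) or log2(FPKM + 0.1). In the same order these fits called 462, 160, 33 and 18 of all genes. Over the 9 genes other than Igf1, whose differences are given without a test, DESeq2 called 0 after 7 days. It also called 0 of the 9 for the difference of the induction responses. DESeq2 called 1 pathway gene before induction and 11 with induction in the control cells, beside 462 and 1555 of all 13470 genes. With at least 10 counts in every library, which removed Igfbp2 and Igfbp3 from the test, 2 family genes were called with induction in the control cells and 1 in the cells labelled KD-Nap1l2. Of the 12027 genes that passed this filter, 966 and 1763 were called. Leaving out each library gave 0 to 1 family calls and 0 to 2 pathway calls before induction, 0 to 5 and 1 to 11 with induction of the control cells, and 1 to 3 and 1 to 9 with induction of the cells labelled KD-Nap1l2. Calls were gained there for Igf1r in the control cells without either KD-Nap1l2 library (adjusted p = 0.0331 and 0.0321). In the cells labelled KD-Nap1l2 they were gained for Igfbp3 without either NC-7day library (0.0315 and 0.0297) and for Igfbp6 without KD-Nap1l2 replicate 1 (0.0329). The causes were not tested.

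Directions turned when a library was left out for log2 differences that had not been called. These ran from -0.22 to 0.26 for Igfbp7 before induction, and after 7 days from -0.0896 to 0.230 for Igf2r, -0.401 to 0.0487 for Igfbp6 and -0.021 to 0.242 for Igfbp7. With induction of the control cells they ran from -0.38 to 0.66 for Igfbp4, -1.34 to 0.23 for Igfbp5 and -0.0502 to 0.314 for Igfbp6. In the cells labelled KD-Nap1l2 they ran from -0.22 to 0.39 for Igf1r, -0.14 to 0.18 for Igf2r, -0.41 to 1.02 for Igfbp4 and -0.69 to 1.54 for Igfbp5.

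Same-numbered libraries of different groups deviated with correlations of -0.0612 to 0.104, so the numbers were not taken as pairs. With the replicate block, 5 pathway genes were called in the cells labelled KD-Nap1l2 and the family counts were within 1.5 times. Over all genes, calls in the order of the 5 comparisons were 11, 0, 1106, 1912 and 0 with edgeR, 4, 0, 961, 1757 and 0 with the replicate block, and 462, 82, 1555, 2382 and 97 with DESeq2. The order of the genes was the same with FPKM summed over transcripts, and transcript shares from FPKM moved by less than 1 SD. With Spearman's correlation 6 of the 9 similar genes were below 1, at 0.881 to 0.976. Igfbp3 and Igfbp2 after induction rest on 2 to 13 counts a library, which limits what these libraries can show of them.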
